A study of Homo sapiens with 6 samples.

Results

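The human keratin gene family was followed in U-2 OS cells after depletion of the RNA- and DNA-binding protein SFPQ. Members were chosen by name and not by a cut on any measured value, though with earlier results of these data known. They are all protein-coding genes whose symbol is KRT followed by a digit, which gave 55 of the 60664 genes in the count table. Of these, 29 encode type I keratins and 26 encode type II keratins. All type II genes lie in a cluster on chromosome 12, and the type I genes lie in a cluster on chromosome 17, with the exception of KRT18, which sits at the end of the chromosome 12 cluster.

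U-2 OS is an established line of human osteosarcoma, a bone tumour of mesenchymal origin, and its genotype was labelled as polyploid. The cells were transfected with control siRNA (siControl, 3 replicates) or with siRNA against SFPQ (siSFPQ, 3 replicates). The SFPQ siRNA was delivered with RNAi-MAX Lipofectamine at a final concentration of 30 nM. PolyA RNA was read as paired ends of 150 bases, and the authors deposited raw counts per Ensembl gene. All libraries come from this 1 cell line, and the study calls the replicates biological, so p-values measure the spread between these 6 libraries.

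Keratins are the intermediate filament proteins of epithelial cells. An acidic type I chain always pairs with a basic type II chain, and the heterodimers assemble into filaments that anchor at desmosomes and hemidesmosomes and give epithelial sheets their mechanical strength. The genes are used in sets: simple keratins in single-layered epithelia, epidermal and other stratified keratins in skin and mucosa, root sheath keratins in the lining of the hair follicle, and hair keratins in the hair shaft itself. Mesenchymal cells build their filaments mainly from vimentin.

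The libraries held between 43469321 and 47119203 counts, so that 3 counts over these totals corresponded to between 0.0637 and 0.069 CPM. This limit covers counting error only, and the CPM values of genes are scaled to the effective library size, the total adjusted by its TMM factor. SFPQ itself had 21753 to 23139 counts in siControl and 3140 to 3863 in siSFPQ, with a log2 fold change of -2.73. As a check of the cell type, vimentin (VIM) had 42190 to 42239 counts in siControl and the summed level of 12 mesenchymal and bone markers was 7904 to 8500 CPM, while 14 epithelial markers summed to 18.0 to 21.9 CPM. Among the markers of bone-forming cells, RUNX2 had 2541 to 2681 counts in siControl, SPP1 828 to 848 and ALPL 154 to 173. IBSP was at 0 in siControl with 1 count in the 6 libraries together, and the osteoblast factor SP7 had at most 1 count in each siControl library.

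Promoter sequence upstream of the start site was taken from RefSeq (GRCh38.p14) for the members that had an entry, 34 of the 55, over 250 bases before each start. Of the members that changed in siSFPQ and had an entry, KRT8, KRT5 and KRT75 had no TATAAA, the core of the TATA box. The sequences below are the 120 bases directly before the start site of the 4 that had it. They are KRT34 and KRT33B, adjacent type I hair keratin genes, and KRT71, a type II root sheath gene. KRT10, the type I keratin of the differentiated epidermis, is also among them. All 4 genes lie on the minus strand, and the sequences are written from 5′ to 3′ with TATAAA in capitals. KRT34, KRT33B and KRT71 were higher and KRT10 was lower in siSFPQ. Their positions are chr17:41382307-41382426 for KRT34, chr17:41369814-41369933 for KRT33B, chr12:52553146-52553265 for KRT71 and chr17:40822615-40822734 for KRT10.
KRT34: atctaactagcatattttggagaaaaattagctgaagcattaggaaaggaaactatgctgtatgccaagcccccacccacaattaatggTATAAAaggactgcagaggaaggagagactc
KRT33B: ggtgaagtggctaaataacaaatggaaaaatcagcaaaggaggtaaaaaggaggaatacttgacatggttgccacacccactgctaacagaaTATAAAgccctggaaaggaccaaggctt
KRT71: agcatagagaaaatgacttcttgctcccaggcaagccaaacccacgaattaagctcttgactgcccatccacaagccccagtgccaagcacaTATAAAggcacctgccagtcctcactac
KRT10: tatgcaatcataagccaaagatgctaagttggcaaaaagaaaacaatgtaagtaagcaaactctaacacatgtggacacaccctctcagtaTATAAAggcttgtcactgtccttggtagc

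A TATAAA on the sense strand, beginning 35 to 25 bases before the start site, was found in 16 of the 38 keratin windows (42.1%) and in 761 of all 35116 promoter windows (2.17%). On either strand and anywhere in the 250 bases, TATAAA was present in 21 keratin windows (55.3%) against 10.7% of all windows. The GC box core GGGCGG went the other way, with 4 keratin windows (10.5%) against 42.6% of all windows, and the AP-1 core TGANTCA was in 0 of the 38 keratin windows against 6.57% of all. By gene, TATAAA was present in 3 of 5 members that were higher, 1 of 2 that were lower, 1 of 6 that were tested and not called, and 16 of 21 with too few reads to test. These matches of letters describe the 34 members with an entry, of which 21 were not tested, and not the whole family. KRT17, KRT81, KRT18 and KRT80 had no entry. The matches were not tested against the calls.

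A total of 30 keratins had at least 10 counts over the 6 libraries and were tested. Depletion of SFPQ was accompanied by a rise of 16 keratins and a fall of 3, KRT75, KRT10 and KRT14, by edgeR's quasi-likelihood test with a Benjamini-Hochberg adjusted p under 0.05 (called edgeR adjusted p from here on). The remaining 11 tested keratins did not pass. Over all 29022 genes tested, 22.4% were higher and 22.1% lower by the same rule, so the lower calls among keratins were below the share of all genes and the higher calls above it. A log2 fold change over 1.5 in addition was reached upwards by 6 keratins (KRT34, KRT15, KRT16, KRT7, KRT71 and KRT6A) and downwards by KRT14, where 5.54% and 4.77% of all genes tested passed these limits. The median log2 fold change of the 30 keratins was 1.12, and that of all genes tested was 0.02. Keratins enter the test only if they have enough reads, so these counts and the median describe the members that passed the filter and not the family.

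Normalized counts of all siSFPQ libraries lay above those of all siControl libraries in 19 of the 30 tested keratins, against 26.9% of all genes tested. In either direction the normalized counts did not overlap in 23 keratins, against 52.3% of all genes. Among the 16 keratins with a mean of at least 1 CPM, 13 were higher and 3 lower, where 30.1% and 34.5% of the 15641 genes at that level were called. At this level 5 keratins were past the fold limit upwards and 1 downwards, against 1.77% and 4.15% of genes. In RNA from a whole culture, a change in the number of cells that express a keratin and a change in its RNA per cell cannot be told apart.

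Among the simple keratins, the pair of KRT8 and KRT18 carried nearly all counts, and both genes rose. KRT8 (ENSG00000170421, type II, chromosome 12, 52897187 to 52949954), the first keratin made in the embryo and the main type II chain of simple epithelia, had 9163, 9369 and 8842 counts in siControl and 19504, 18839 and 20750 in siSFPQ. All siSFPQ libraries were thus well above the siControl libraries. Its log2 fold change was 1.11 (SE 0.04, edgeR adjusted p = 8.32e-22). KRT18 (ENSG00000111057, type I, chromosome 12, 52948871 to 52952906), its partner, had 5814, 6029 and 5843 counts in siControl and 14710, 14856 and 15902 in siSFPQ. The groups were again far apart, with a log2 fold change of 1.36 (SE 0.04, edgeR adjusted p = 9.04e-25).

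KRT7, a type II keratin of ducts and glands, was scarce and rose as well. It had 23, 31 and 30 counts in siControl and 103, 103 and 86 in siSFPQ, a log2 fold change of 1.79 (SE 0.23, edgeR adjusted p = 4.03e-08). Its usual type I partner KRT19 had between 0 and 2 counts in siControl and between 2 and 10 in siSFPQ and did not pass the test (edgeR adjusted p = 0.142). KRT20, a marker of intestinal epithelium, had 19, 1 and 3 counts in siControl and 13, 23 and 15 in siSFPQ, so that siControl replicate 1 lay within the siSFPQ range, and it was called without that library (edgeR adjusted p = 0.0011). In the 3 siControl libraries KRT23 was at 3 counts throughout, against 6, 15 and 10 in siSFPQ (edgeR adjusted p = 0.0525). Of the 6 simple keratins, all were tested, and 3 were higher and 0 lower, against 22.4% and 22.1% of all genes tested. Normalized counts of the groups did not overlap in 5 of them, against 52.3% of all genes tested. In KRT19, counted among these 5, the unscaled counts of the groups met at 2.

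The epidermal and other stratified keratins moved in both directions. Of 22 genes, 14 were tested, with a median log2 fold change of 0.56. Of these, 7 were higher and 2 lower, against 22.4% and 22.1% of all genes tested. KRT17, a type I keratin of hair follicles and of healing and inflamed epidermis, was the most abundant keratin of these cells. It had 27358, 29412 and 29238 counts in siControl and 38826, 42922 and 42358 in siSFPQ, and its change was modest, with a log2 fold change of 0.52 (SE 0.04, edgeR adjusted p = 3.73e-14). KRT80, a type II keratin found in many differentiating epithelia, had 12590, 13227 and 11846 counts in siControl and 18678, 18750 and 19320 in siSFPQ. Its log2 fold change of 0.59 (SE 0.04, edgeR adjusted p = 1.23e-14) was of a similar size to that of KRT17.

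The other stress keratins, which keratinocytes switch on in wounds, started from low levels and had larger fold changes than KRT17. KRT16 had 81, 54 and 78 counts in siControl and 225, 263 and 300 in siSFPQ (log2 fold change 1.88, SE 0.15, edgeR adjusted p = 2.19e-12). KRT6A, the type II partner of KRT16, went from 4, 7 and 3 counts to 55, 44 and 58, the largest fold change of any called keratin (log2 3.45, SE 0.40, edgeR adjusted p = 6.71e-09). KRT6B, a close copy of KRT6A, had 39, 38 and 54 counts in siControl and 112, 115 and 94 in siSFPQ (log2 fold change 1.29, SE 0.20, edgeR adjusted p = 2.96e-06). In all of these genes the siControl and siSFPQ counts stood apart. The third copy, KRT6C, had 2 counts in the 6 libraries together and was not tested.

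The keratins of the basal epidermal layer did not move together. KRT14 (ENSG00000186847, type I, chromosome 17, 41582279 to 41586895), which with KRT5 makes the filaments of basal keratinocytes, fell from 712, 691 and 663 counts to 180, 216 and 191. This was the largest fall of a called keratin (log2 fold change -1.82, SE 0.09, edgeR adjusted p = 9.81e-18). KRT5, its partner, had 37, 60 and 59 counts in siControl and 86, 75 and 75 in siSFPQ (log2 fold change 0.59, SE 0.22, edgeR adjusted p = 0.0259). This call was the least stable of the 19: it was lost with DESeq2 (adjusted p = 0.0663), without siControl replicate 1 (adjusted p = 0.12) and without siSFPQ replicate 1 (adjusted p = 0.117). KRT15, a type I keratin of basal cells and of stem cells in the follicle bulge, had 85, 95 and 97 counts in siControl and 521, 411 and 495 in siSFPQ. Every siSFPQ library held several times the siControl counts (log2 fold change 2.36, SE 0.12, edgeR adjusted p = 3.06e-17).

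KRT10 (ENSG00000186395, type I, chromosome 17, 40818117 to 40822614) marks the differentiated layers of the epidermis, where it pairs with KRT1. It fell from 1253, 1261 and 1034 counts to 758, 668 and 712 (log2 fold change -0.73, SE 0.08, edgeR adjusted p = 5.83e-10). KRT1 was at 0 counts in all 6 libraries, and KRT2, the type II keratin of the uppermost layers, had 1 count in all. Of the mucosal pair, KRT4 had 11, 12 and 8 counts in siControl and 6, 2 and 3 in siSFPQ and did not pass (edgeR adjusted p = 0.0924), and KRT13 had at most 6 counts in any library.

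The hair keratins had no member that fell. Of 17 genes, 6 were tested, 4 were higher and 0 lower, against 22.4% and 22.1% of all genes tested. KRT81 (ENSG00000205426, type II, chromosome 12, 52285913 to 52291534), a keratin of the hair cortex, was the second most abundant keratin per library after KRT17. It had 14814, 14487 and 14551 counts in siControl and 35371, 32524 and 37082 in siSFPQ, and it rose with a log2 fold change of 1.26 (SE 0.04, edgeR adjusted p = 1.01e-22). KRT34 (ENSG00000131737, type I, chromosome 17, 41377669 to 41382306), the cortex keratin whose promoter is shown above, had 182, 169 and 175 counts in siControl and 862, 837 and 1014 in siSFPQ. No other hair keratin that was called had a larger fold change (log2 2.36, SE 0.09, edgeR adjusted p = 1.06e-20).

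KRT33B, which lies next to KRT34, had 21, 22 and 30 counts in siControl and 51, 66 and 71 in siSFPQ (log2 fold change 1.35, SE 0.26, edgeR adjusted p = 6.6e-05). Its near copy KRT33A had at most 1 count in any library. KRT86, a type II hair keratin that overlaps KRT81 on the other strand, had 42, 42 and 44 counts in siControl and 101, 89 and 114 in siSFPQ (log2 fold change 1.24, SE 0.20, edgeR adjusted p = 4.63e-06). KRT32, an early type I hair keratin, had 0, 1 and 0 counts in siControl and 5, 4 and 3 in siSFPQ and did not pass (edgeR adjusted p = 0.0584). The 11 hair keratins that were not tested, KRT33A among them, had fewer than 10 counts over the 6 libraries, and KRT38 had 0.

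Of the 9 root sheath keratins, 3 were tested, with 1 higher and 1 lower, against 22.4% and 22.1% of all genes tested. KRT75, the type II keratin of the companion layer around the hair shaft, fell from 1519, 1700 and 1510 counts to 1088, 1272 and 1229 (log2 fold change -0.40, SE 0.06, edgeR adjusted p = 6.34e-07). KRT71, an inner root sheath keratin, had 20, 14 and 11 counts in siControl and 86, 79 and 65 in siSFPQ (log2 fold change 2.34, SE 0.28, edgeR adjusted p = 1.54e-08). KRT222, a type I gene placed in no class, had 19, 28 and 30 counts in siControl and 41, 52 and 54 in siSFPQ (log2 fold change 0.92, SE 0.28, edgeR adjusted p = 0.00754).

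**Figure D1:**
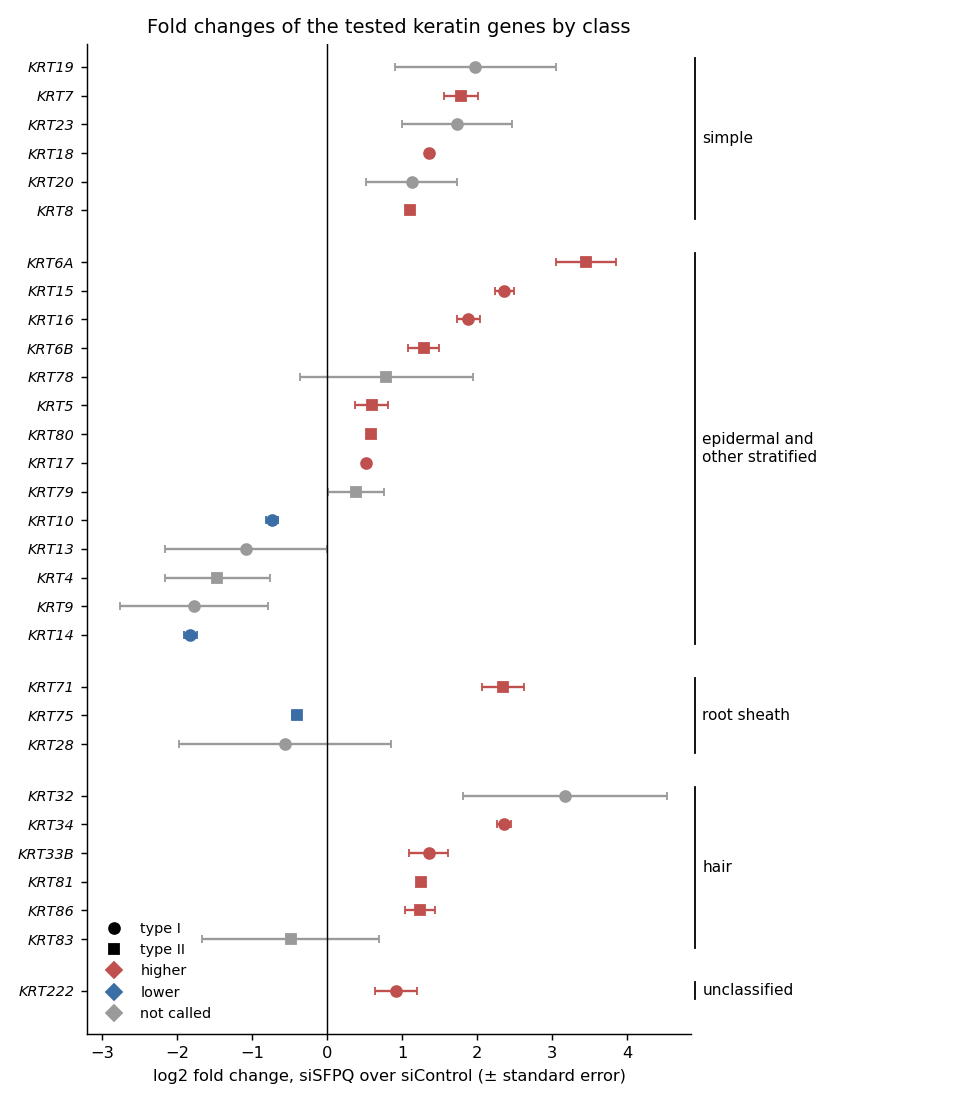
Log2 fold change of siSFPQ over siControl (horizontal axis) for the 30 tested keratin genes, grouped by class, with the standard error as a bar; circles are type I and squares type II genes. All 6 simple keratins lie to the right of 0, 3 of them not called, while epidermal keratins range from -1.82 for KRT14 to 3.45 for KRT6A.

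The remaining 25 keratins were below the filter. Of these, 18 had some counts, and 7 had 0 counts in all 6 libraries: KRT1, KRT25, KRT27, KRT38, KRT72, KRT73 and KRT77. A count of 0 allows a level of up to 0.069 CPM of the library total in the shallowest library. The genes without counts belong to the epidermal class (KRT1 and KRT77), the root sheath (KRT25, KRT27, KRT72 and KRT73) and the hair shaft (KRT38). No simple keratin was among them.

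Type I and type II genes showed similar counts of calls. Of 16 tested type I keratins, 7 were higher and 2 lower, with a median log2 fold change of 1.24. Of 14 tested type II keratins, 9 were higher and 1 lower, with a median of 0.95. Over all genes tested, 22.4% were higher and 22.1% lower. The difference between the types was not tested. The summed CPM of type I genes was 779, 826 and 815 in siControl and 1267, 1291 and 1318 in siSFPQ, a ratio of 1.60 between the means. For type II genes it was 839, 853 and 810 in siControl and 1696, 1538 and 1701 in siSFPQ, a ratio of 1.97. Both sums were higher in every siSFPQ library than in any siControl library.

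Levels of different genes were compared as normalized counts per kb of the canonical GENCODE transcript. On that scale the summed level of all 55 keratins was 41117 ± 808 in siControl and 74278 ± 2327 in siSFPQ (SD, n = 3 each). The type I level divided by the type II level was 1.45 ± 0.056 in siControl and 1.14 ± 0.073 in siSFPQ (SD, n = 3 each). The lowest siControl library was at 1.39 and the highest siSFPQ library at 1.22, so the excess of type I over type II was smaller in each siSFPQ library. An exact permutation test of 3 libraries against 3 cannot give a two-sided p under 0.1, so none is given for this ratio or for the pairs below.

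The 5 most abundant genes made up 95.0% of the keratin level per kb in siControl and 96.9% in siSFPQ. KRT17 stood at 18927 ± 744 normalized counts per kb in siControl and 27208 ± 706 in siSFPQ, and it remained first in both. KRT81 went from 7589 to 18124, KRT8 from 5122 to 11027, KRT18 from 4179 to 10709 and KRT80 from 3246 to 4877 normalized counts per kb. The share of KRT17 in the keratin level went from 46.0% to 36.7%, and that of KRT81 from 18.5% to 24.4%. KRT81 made up 31.8% of the net increase of the summed level per kb, KRT17 24.97%, KRT18 19.7%, KRT8 17.8% and KRT80 4.92%. The 6 simple keratins together made up 37.7% of that increase, the hair keratins 33.3% and the epidermal and other stratified keratins 29.5%. Keratins as a whole took between 0.158% and 0.163% of all counts in siControl and between 0.291% and 0.308% in siSFPQ.

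Partner genes differed in how their balance moved. The level of KRT18 divided by that of KRT8, both per kb, was 0.801, 0.812 and 0.834 in siControl and 0.952, 0.996 and 0.968 in siSFPQ, so the pair came closer to equal levels. The ratio of KRT14 to KRT5 was 26.3, 15.8 and 15.4 in siControl and 2.86, 3.94 and 3.48 in siSFPQ. The ratio of KRT16 to KRT6A was 28.2, 10.7 and 36.2 in siControl and 5.69, 8.32 and 7.20 in siSFPQ, where the siControl values rest on 3 to 7 counts of KRT6A. The hair pair KRT34 and KRT86 went the other way, with a ratio of 5.96, 5.53 and 5.47 in siControl and 11.7, 12.9 and 12.2 in siSFPQ. KRT86 shares sequence with KRT81, and how much of its count is its own was not tested. KRT17 exceeded its partner KRT6B by 822 to 1175 times in siControl and by 526 to 684 times in siSFPQ. The ratio of KRT13 to KRT4 was 0.681, 0.104 and 0.937 in siControl and 0, 2.50 and 0.833 in siSFPQ. The groups of this pair overlapped, and its ratio rests on at most 12 counts of either gene in any library. KRT10 had no reads of its partner KRT1 in any library, and KRT81 had at most 5 counts of the type I hair keratin KRT31 beside it.

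Along the chromosomes, called and silent genes were interspersed. The chromosome 12 cluster spans 0.784 Mb, with 15 of 27 genes tested, 10 higher and 1 lower. The chromosome 17 cluster spans 0.970 Mb, with 15 of 28 genes tested, 6 higher and 2 lower. Among all genes tested, 22.4% were higher and 22.1% lower. Neighbours could move in opposite directions: KRT14, which fell, ends 22.9 kb from KRT16, which rose, and KRT16 ends 3.54 kb from KRT17. KRT75, which fell, ends 12.3 kb from KRT6B, which rose. Between KRT71 and KRT4, a stretch of 8 genes from KRT74 to KRT3 had no tested member. Other genes inside the clusters were mostly below the count filter. Keratin pseudogenes and protein-coding genes of keratin associated proteins are left out of this count. Of 18 such other genes on chromosome 12, 5 were tested and 1 was higher. Of 18 on chromosome 17, 2 were tested and 0 were called.

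The keratin associated protein genes (KRTAP), whose products embed the hair keratins, lie inside the chromosome 17 cluster and on other chromosomes. Of 94 such genes, 11 were tested, 2 were higher and 1 lower, against 22.4% and 22.1% of all genes tested. KRTAP2-3 was the most abundant, with 208, 244 and 236 counts in siControl and 1051, 931 and 986 in siSFPQ (log2 fold change 2.11, SE 0.09, edgeR adjusted p = 5.61e-20). Both of the higher genes were among the 34 inside the chromosome 17 cluster, 4 of which were tested.

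Some keratins share sequence with each other, and a read that lies wholly in a shared stretch matches both genes. How such reads were counted is not given in the sources used here. The shares below count exact matches to transcripts of another gene, and are not shares of misplaced reads. Of all 150-base windows of the KRT81 transcript, 25.6% also occur in KRT86, and 21.7% of those of KRT86 occur in KRT81. KRT86 had 0.284%, 0.290% and 0.302% of the counts of KRT81 in siControl and 0.286%, 0.274% and 0.307% in siSFPQ, so the ranges of this fraction overlapped between the groups. How much of the KRT86 count is its own was not tested. Shared windows made up 9.26% of KRT6A, 12.7% of KRT6B and 16.3% of KRT6C, but only 0.605% of KRT14 and 0.729% of KRT16. They made up 33.7% of KRT222, all shared with ENSG00000264058, a gene outside the family whose exons overlap it on the same strand. No other keratin had any. KRT6A had 10.3%, 18.4% and 5.56% of the counts of KRT6B in siControl and 49.1%, 38.3% and 61.7% in siSFPQ, so this fraction was not constant.

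Summing related copies, grouped by name, before the test gave 13 higher and 2 lower units out of 25 tested. These sums include genes without shared windows, such as KRT17, KRT8 and KRT18, so this fit does not isolate the effect of shared reads. The sum of KRT6A, KRT6B and KRT6C had 43, 45 and 57 counts in siControl and 167, 159 and 154 in siSFPQ. In the sum of KRT14, KRT16, KRT17 and their pseudogenes, KRT17 outweighs the fall of KRT14. Exons of KRT8 and KRT18 overlap on opposite strands, as do those of KRT7 with KRT7-AS and KRT87P and of KRT10 with KRT10-AS1. The kit marks strand, but the strand setting of the counting is not given in the sources used here, so these counts could include reads of the overlapping gene. KRT10-AS1 had 285 to 338 counts in siControl and 300 to 389 in siSFPQ and did not pass the test (edgeR adjusted p = 0.611), while KRT10 fell.

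Genes that anchor or accompany keratin filaments were counted from lists of names. Of 16 desmosome genes, 12 were tested, with a median log2 fold change of 0.21. Of these, 6 were higher and 1 lower, against 22.4% and 22.1% of all genes tested. Plakoglobin (JUP), which links desmosomal cadherins to the plaque, rose from 1405, 1468 and 1356 counts to 4029, 4058 and 4290 (log2 fold change 1.54, SE 0.05, edgeR adjusted p = 4.77e-24), and plakophilin 3 (PKP3) rose with a log2 fold change of 1.20. PKP4, a plakophilin-related junction protein, fell from 4755, 4776 and 4772 counts to 586, 688 and 654 (log2 fold change -2.90, SE 0.05, edgeR adjusted p = 2.26e-30). Desmoplakin (DSP), which ties keratin filaments to the plaque, had 22, 34 and 27 counts in siControl and 28, 31 and 30 in siSFPQ and did not pass (edgeR adjusted p = 0.843).

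All 9 hemidesmosome genes were tested and had a mean of at least 1 CPM, with a median log2 fold change of 0.49. Of these, 6 were higher and 3 lower, against 30.1% and 34.5% of all genes at that level. The laminin chains LAMA3 (1.02) and LAMB3 (0.88), the integrin ITGA6 (0.77) and the collagen COL17A1 (0.49) had the largest log2 fold changes. Of 15 other intermediate filament genes, 13 were tested, with a median of 0.32. Of these, 7 were higher and 2 lower, against 22.4% and 22.1% of all genes tested. VIM rose from 42190 to 42239 counts in siControl to between 51572 and 54334 in siSFPQ, a log2 fold change of 0.32. Among the called genes with a mean of at least 1 CPM, the largest log2 fold changes were those of GFAP (1.33), BFSP1 (0.40), NEFL (0.36) and NES (-0.35), of which the BFSP1 call was lost with DESeq2 (adjusted p = 0.118), with no count filter (adjusted p = 0.0718) and in 4 of 6 fits without 1 library.

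Of 19 listed keratin partners and regulators, 15 were tested, with a median of 0.37. Of these, 7 were higher and 5 lower, against 22.4% and 22.1% of all genes tested. The homeobox genes DLX3 (2.10) and MSX2 (1.26), which act in hair and tooth development, and the epidermal factor GRHL3 (1.54) rose, and TCHP (-1.17), which encodes a keratin-binding protein, fell. HOXC13, a regulator of hair keratin genes, fell from 1069, 1121 and 1023 counts to 786, 845 and 873, and LEF1, the nuclear partner of beta-catenin in the hair follicle, fell from 776, 896 and 835 to 609, 636 and 667. TP63, the master factor of stratified epithelium, had at most 13 counts in any library and did not pass. The HOXC13, LEF1, DSP, KRT10-AS1 and TP63 values were chosen for display after they were seen.

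Markers of other cell types moved with the keratins in part. The summed level of the 14 epithelial markers was 18.0 to 21.9 CPM in siControl and 43.9 to 46.7 CPM in siSFPQ. Of 12 tested genes, 6 were higher and 0 lower, against 22.4% and 22.1% of all genes tested. The most abundant marker of that list was claudin 4 (CLDN4), which rose from 372, 439 and 403 counts to 1353, 1301 and 1441 (log2 fold change 1.75, SE 0.07, edgeR adjusted p = 5.55e-20). CDH1 (0.76) and MAL2 (0.89) rose by smaller log2 fold changes, and the CDH1 call was lost without siControl replicate 1 (edgeR adjusted p = 0.0557). EPCAM had 219, 258 and 221 counts in siControl and 206, 228 and 185 in siSFPQ and did not pass (edgeR adjusted p = 0.242). The epithelial regulators GRHL2 and ELF3 had at most 4 counts in any library, and no marker of the list was at 0 in all.

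Of 13 keratinocyte markers in the table, 10 were tested. Of these, 5 were higher and 1 lower, against 22.4% and 22.1% of all genes tested. The summed level of the 13 was 239 to 265 CPM in siControl and 297 to 322 in siSFPQ, most of it from SFN. Filaggrin (FLG), the filament-bundling protein of the outer epidermis, rose with a log2 fold change of 0.78, SBSN with 0.62 and SFN with 0.25. The 1 lower marker, KLK5, was below 1 CPM and was chosen for display after it was seen. It had 12, 33 and 23 counts in siControl and 9, 7 and 12 in siSFPQ (log2 fold change -1.27, SE 0.47, edgeR adjusted p = 0.0253). SBSN lost its call without siSFPQ replicate 1 (edgeR adjusted p = 0.0834) and without siSFPQ replicate 3 (edgeR adjusted p = 0.0892). The desmosomal cadherins of keratinocytes, DSG1, DSG3 and DSC1, had at most 10 counts in any library. The 12 mesenchymal and bone markers summed to 7904 to 8500 CPM in siControl and 6818 to 6932 in siSFPQ. Of 10 tested genes, 2 were higher and 5 lower, against 22.4% and 22.1% of all genes tested. SPP1 (-1.33), FN1 (-0.53) and COL1A1 (-0.35) were among the lower genes. The 2 higher genes were VIM (0.32) and BGLAP, which was below 1 CPM. BGLAP had 0, 0 and 1 counts in siControl and 5, 6 and 6 in siSFPQ (log2 fold change 3.65, SE 1.28, edgeR adjusted p = 0.0199). RUNX2, ALPL and COL1A2 were tested and did not pass. The part of these markers in the keratin values was not tested.

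Keratin genes are short. The median span of the 55 genes, introns included, was 7.10 kb, with a range of 3.89 to 59.9 kb. It was 7.33 kb for the 30 tested keratins and 32.7 kb for all 16477 protein-coding genes tested. Among the 6991 tested protein-coding genes with a span of up to 25 kb, 32.9% were higher and 19.4% lower, and the median log2 fold change was 0.09. At a mean of at least 1 CPM these shares were 37.8% and 24.1% of 5163 genes. Among the keratins at that level, of any span, 13 of 16 were higher and 3 of 16 lower. These include KRT86 (59.9 kb) and KRT8 (52.8 kb), both higher, which are longer than 25 kb.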

How the data were processed

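PolyA RNA of 3 siControl and 3 siSFPQ samples of U-2 OS cells was sequenced. The authors deposited raw counts per Ensembl gene, without normalization; their notes name FastQC, STAR 2.7.9a, DESeq2 and GRCh38, and the strand setting is not given in the sources used here. All 6 columns matched a sample title, and 0 were left unused. Gene names, types and positions were matched by identifier to GENCODE release 44 for 60463 of 60664 genes (99.67%). The test was the quasi-likelihood test of edgeR 4.0.16 (R 4.3.3) with TMM factors and no covariates, on the 29022 genes that had 10 or more counts over all libraries. P-values were adjusted by Benjamini-Hochberg over these genes, with a threshold of 0.05. Normalized counts are counts divided by effective library size, scaled to a common size, and CPM and values per kb follow from them. Each standard error is the log2 fold change divided by the root of its F statistic. On simulated counts, edgeR called 200 of 200 genes changed by a log2 of 2 and 5 others among 28175 genes. Replicates were checked and none was a repeat of another (chi-square per degree of freedom 4.07 to 5.96 within a condition and 93.5 to 116 between).

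Statistics are given for each tested keratin whose mean was 1 CPM or more or that was past both limits, and for up to 6 further members in order of adjusted p. Partner pairs and, of each related list, up to 4 called genes with the largest change at a mean of 1 CPM or more are also named. The members and lists were chosen with earlier results of these data known. Classes, partner pairs and lists come from general knowledge of keratin biology. The alternatives were edgeR's filterByExpr or no filter, RLE factors or library size in place of TMM, DESeq2 1.42.0, and the replicate number as a block. Further alternatives were related copies summed, a log2 limit of 1, and each library left out in turn.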

Additional observations from a re-analysis of the deposited data

How the results depend on the processing

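The number of higher keratins was 16 under filterByExpr, with no filter and with RLE factors, 17 with library size alone, 15 with DESeq2 and between 15 and 17 with a library left out. The number of lower keratins was 3 in each of these fits. With related copies summed, 13 units were higher and 2 lower. The number past the downward fold limit was 0, because KRT14 was then part of a sum dominated by KRT17, whose log2 fold change was 0.49. With a log2 limit of 1 in place of 1.5, 12 keratins were past it upwards. The log2 ratio of the summed level was 0.84 for all keratins and 0.68 for type I, and with library size alone it was 0.90 and 0.74. With a library left out, the number past the upward limit was 6 or 7, and the added gene was KRT20 without siControl replicate 1, KRT32 without siControl replicate 2 and KRT33B without siControl replicate 3. The added gene with library size alone was KRT23. Among genes that were not called, the log2 fold change changed sign for DSP (-0.044 to 0.27) and KRT10-AS1 (-0.015 to 0.16) with a library left out. KRT5 was the called keratin that lost its call in some fits, and its log2 fold change was between 0.40 and 0.71 with a library left out.

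Same-numbered libraries of the 2 conditions did not deviate together from their group means (correlations across genes of 0.0019, 0.0121 and 0.0153), so the numbers were not used as pairs. With the replicate block, 17 keratins were higher, KRT20 being the added one, and 3 lower. The 18 keratins with fewer than 10 counts were tested with no filter and none of them was called, and the 7 keratins at 0 could not be tested.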

Other observations

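Keratin pseudogenes, most of them copies of KRT8 and KRT18, were read beside their parent genes. Of 150 such genes, 55 were tested, 16 were higher and 3 lower, against 22.4% and 22.1% of all genes tested. The 67 copies of KRT18 together had 3.99%, 3.42% and 4.31% of the counts of KRT18 in siControl and 4.39%, 4.55% and 4.35% in siSFPQ. KRT18P5, for example, had 0.722%, 0.647% and 0.667% of the counts of KRT18 in siControl and 0.666%, 0.545% and 0.660% in siSFPQ. The 51 copies of KRT8 together had 7.84% to 8.12% of the counts of KRT8 in siControl and 4.41% to 5.31% in siSFPQ. Whether these reads come from the copies or from the parent genes was not tested.

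KRT18P31 had the largest log2 fold change of the pseudogenes with a mean of at least 1 CPM. It had 5, 13 and 14 counts in siControl and 204, 226 and 215 in siSFPQ (log2 fold change 4.31, SE 0.23, edgeR adjusted p = 2.45e-17), and its fraction of the KRT18 counts went from between 0.086% and 0.240% to between 1.35% and 1.52%. KRT18P31 (chromosome 5, 36885206 to 36886497) lies on the same strand inside NIPBL, a cohesin loader, 8.44 kb from its start and between its exons. NIPBL itself had 8768 to 9530 counts in siControl and 6997 to 8051 in siSFPQ, a log2 fold change of -0.28 (SE 0.04, edgeR adjusted p = 4.96e-07).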
